A study of Saccharomyces cerevisiae with 36 samples.

Results

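The genes described here encode 40 enzymes of amino acid biosynthesis in budding yeast (Saccharomyces cerevisiae), out of 7127 features in the count tables. They were chosen by systematic name as steps of 8 pathways that are known to be under the control of the transcription factor Gcn4. The rule took only enzymes that carry no iron cofactor. No measured value enters that rule, but the members were chosen with earlier results of these data known. They comprise 7 genes of arginine synthesis, 6 of histidine, 10 of the aromatic amino acids, 6 of lysine, 5 of threonine, 3 of serine, ASN1 for asparagine, and PRO1 and PRO2 for proline. All 40 passed the filter on low counts in both assays.

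RNA-seq and Ribo-seq were carried out on 36 libraries from a W303a wild type and a cth1Δcth2Δ double deletion mutant of budding yeast. Both strains grew in Kaiser SC, a synthetic complete medium, at 0 h with sufficient iron and for 3 h or 6 h with 100 µM bathophenanthroline disulfonic acid (BPS), which chelates ferrous iron. Aliquots of each lysate gave both poly(A)-selected RNA and RNase I footprints of 80S ribosomes, and each of the 12 combinations of assay, strain and hours holds 3 biological replicates. The mutant lacks CTH1 and CTH2 (listed as TIS11), whose RNA-binding proteins are known to bind AU-rich elements and speed the decay of their target mRNAs when iron is scarce. W303 strains are known to carry auxotrophic alleles of HIS3, TRP1, LEU2, URA3 and ADE2, none of which is a member; how the deletions were made and how many clones were used is not given in the sources used here.

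As background, Gcn4 is the activator of general amino acid control. Shortage of an amino acid leaves uncharged tRNA, which activates the kinase Gcn2; phosphorylation of the initiation factor eIF2 then lets ribosomes pass the short upstream reading frames of the GCN4 mRNA and translate Gcn4. Gcn4 binds sites of the form TGACTCA upstream of genes in most amino acid pathways, and pathway-specific regulators such as Lys14 (lysine), the ArgR factors Arg80 and Arg81 (arginine) and Bas1 (histidine) act beside it. Other enzymes of amino acid synthesis, among them Lys4, Leu1, Ilv3, Glt1 and Met5, carry iron-sulfur clusters and are not members.

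The letters of that site are shown for genes that rose and for genes that fell in wild-type footprints at 6 h, because both kinds carry them. Each line gives up to 10 bases on either side of a match in the 300 bases before the annotated start codon, read 5′ to 3′ on the coding strand in the R64 assembly, with the match in capitals. The core motif TGACTC and the full site TGANTCA were searched on both strands. A core match on the other strand reads GAGTCA in these lines. A full match that contains a core match is printed once, as the full site. The first 5 genes rose and the last 4 fell in wild-type footprints at 6 h.
LYS1 (chrIX:420970-420996, minus strand): actaagtcgaTGAGTCAaaaaagactc
LYS1 (chrIX:420855-420880, minus strand): cagcgacaaaGAGTCAtaaagtcatc
LYS2 (chrII:474104-474130, minus strand): ttttcgcgtgTGACTCAatgtcgaaat
ARG5,6 (chrV:295177-295203, plus strand): cttatccgaaTGACTCAgtctacatca
ARG5,6 (chrV:295223-295248, plus strand): tggtaattgaTGACTCttctattttt
HIS4 (chrIII:68573-68598, minus strand): gcagtcgaacTGACTCtaatagtgac
HIS4 (chrIII:68561-68586, minus strand): actctaatagTGACTCcggtaaatta
HIS4 (chrIII:68516-68542, minus strand): ccatgcacagTGACTCAcgttttttta
HIS5 (chrIX:142716-142742, plus strand): ttggatctgtTGACTCActtcaattga
HIS1 (chrV:266052-266077, minus strand): gataacagcgTGACTCttcccggaaa
HIS1 (chrV:265953-265979, minus strand): agcttccaagTGAGTCAcctctaccgt
THR1 (chrVIII:159327-159352, plus strand): atttgtgcaaGAGTCAtcatctcgaa
THR4 (chrIII:216508-216533, plus strand): gcgaacaaaaGAGTCAttacaacgag
PRO2 (chrXV:923082-923108, minus strand): catggacattTGAATCAatggggcagg
PRO2 (chrXV:923014-923040, minus strand): gttgggtcaaTGAGTCAaaaaatgaaa

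The core letters stood in the window of 26 of the 40 members (65%), compared with 466 of 6001 protein-coding genes (7.77%), and the full site in 17 members (42.5%) compared with 407 genes (6.78%). By pathway the core was found for 6 of 7 arginine, 5 of 6 histidine, 4 of 10 aromatic, 3 of 6 lysine, 4 of 5 threonine and 2 of 3 serine genes, for ASN1 and for 1 of the 2 proline genes, PRO2. LYS20, SER3, ARO3, ARO4 and ARO7, whose values are given below, had neither form in this window. In wild-type footprints at 6 h the 26 genes with the core had a median log2 fold change of 0.23 (range -1.33 to 2.30; 6 called higher and 5 lower). The 14 without it had a median of 0.01 (range -1.79 to 1.90; 2 higher and 3 lower). In wild-type RNA at 6 h the order was the reverse, with medians of 0.04 with the core and 0.12 without it. In the mutant at 6 h the medians with and without the core were -0.73 and -0.66 in RNA. Mutant footprints had medians of -0.69 and -0.49. A match is a description of letters, and no site was tested.

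Total counts ranged from 113262 to 6571727 per RNA library (median 1474766) and from 607936 to 28491058 per footprint library (median 4631432). The 40 members took 0.889% to 2.84% of the counts of an RNA library and 1.05% to 3% of those of a footprint library, and the smallest count of a member was 2 in RNA and 6 in footprints. The deletion matched its label: TIS11 footprints reached 937, 1121 and 1205 CPM in the wild type at 6 h and 0.116, 0.489 and 2.87 CPM in the mutant. Levels are in CPM, counts scaled to library size, here with TMM factors. They are listed in the order of replicates 1, 2 and 3, and means carry the SD over n = 3. They are shares of a library, so in these bulk cultures fewer cells with a transcript and less of it per cell cannot be told apart. Called means an adjusted p under 0.05 in edgeR's quasi-likelihood test over all features, and adjusted p-values below come from that test unless DESeq2 is named.

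One lysate was lower than its replicates in most members. In the mutant at 6 h, replicate 2 had the lowest level of the 3 libraries for 33 of the 40 members in RNA and for 29 of 40 in footprints, compared with 33.9% and 27.4% of all features. Other libraries were often the lowest of their group too. Wild-type 0 h replicate 2 was lowest for 25 of 40 in RNA and 27 in footprints (40.9% and 36.2% of all features), and wild-type 3 h replicate 3 for 23 and 28 (29.8% and 31.9%). The summed level of the members in the 3 mutant 6 h replicates was 15742, 7572 and 13662 CPM in RNA and 18741, 9735 and 16135 CPM in footprints. Results on the mutant at 6 h that change without replicate 2 are given both ways, and what sets that lysate apart was not tested.

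The members did not move as one set over the hours in BPS. No library without BPS was taken at 3 h or 6 h, so effects of chelation and of hours in culture cannot be told apart. In the wild type, most lysine and arginine genes had lower levels at 3 h and rose from 3 h to 6 h. SER1 and SER3 rose early in footprints, and ARO7, ARO2, ARO4, HIS1, HIS6 and PRO2 fell by 6 h in both assays. In the mutant those 6 genes fell as well, though the RNA call of PRO2 was lost without mutant 6 h replicate 2 (adjusted p = 0.113). Of the lysine and arginine genes 1 rose from 3 h to 6 h in the mutant, LYS1 in RNA. Without that replicate LYS1, LYS2 and LYS20 rose in RNA (adjusted p = 0.00169, 0.0451 and 0.0164) and LYS1 and LYS20 in footprints (0.00712 and 0.027).

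At 3 h in the wild type, 4 members were called lower in RNA and none higher, with ARG1, ARG3 and ARO3 among them and with 4.15% of all features called (2.66% higher and 1.48% lower). The median log2 fold change of the 40 was -0.50, against 0.03 over all features. In footprints, SER1, SER3 and HIS5 were called higher and ARO3 lower (5.48% of all features called, 3.67% higher and 1.81% lower), with a median of -0.29 against 0.02.

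At 6 h in the wild type, 5 members were called higher and 7 lower in RNA, where 35.9% of all features were called (19.2% higher and 16.7% lower), and the median was 0.12 against 0.03. In footprints 8 were called higher and 8 lower, a share of the 40 below the 52.9% called over all features (28.5% higher and 24.3% lower), with a median of 0.19 against 0.09. Between 3 h and 6 h, 13 members rose and 2 fell in RNA (22.7% of all features called, 11.5% higher and 11.2% lower). Over the same hours 13 rose and 9 fell in footprints (40.4% called, 21.7% higher and 18.6% lower).

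The mutant had few calls at 3 h. SER1 and SER3 rose and LYS20 fell in RNA (3.15% of all features called, 2.13% higher and 1.02% lower). SER1 and SER3 rose in footprints (3.69% called, 2.86% higher and 0.828% lower). With the replicate number as a block, which the check of pairing allowed for that comparison, 4 members were called in footprints.

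At 6 h the mutant had 1 member higher, HIS2, and 18 lower in RNA, with a median of -0.71 against 0.01 over all features and 38.7% of all features called (17.8% higher and 20.9% lower). In footprints no member was higher and 15 were lower, with a median of -0.62 against 0.07 and 50.8% called (26.2% higher and 24.5% lower). Without replicate 2 at 6 h, 2 members were called higher (HIS2 and LYS12) and 9 lower in RNA (median -0.51), and 1 higher (LYS1) and 9 lower in footprints (median -0.37). The 9 were ARO2, ARO4, ARO7, ARO8, ASN1, HIS1, HIS6, THR1 and THR4 in RNA, and ARO1, ARO2, ARO4, ARO7, HIS1, HIS6, PRO2, THR4 and TRP2 in footprints. Between 3 h and 6 h, 1 member rose and 12 fell in RNA (17.8% of all features called, 7.48% higher and 10.3% lower). None rose and 20 fell in footprints (35% called, 17.3% higher and 17.7% lower). Without replicate 2 at 6 h, 3 members rose from 3 h to 6 h in RNA (LYS1, LYS2 and LYS20) and 2 in footprints (LYS1 and LYS20), beside 6 and 10 that fell.

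Directions in RNA are relative to the scaling. When libraries were scaled by total counts alone, the median of all features at 6 h moved from 0.03 to 0.62 in wild-type RNA and, in mutant RNA, from 0.01 to 0.71. The members' RNA medians moved with it to 0.70 and 0.01, and their calls became 17 higher and 1 lower in wild-type RNA. For mutant RNA the calls were 4 higher and 3 lower. At 3 h the same scaling gave 1 higher and 0 lower in wild-type RNA and 2 higher and 0 lower in mutant RNA. From 3 h to 6 h it gave 4 higher and 3 lower in mutant RNA, 15 higher and 5 lower in wild-type footprints and 2 higher and 9 lower in mutant footprints. In wild-type RNA at 6 h against 0 h this scaling ended the calls of HIS1, HIS6 and ARO4 (adjusted p = 0.0536, 0.1 and 0.0874). The calls of ARO2, PRO1 and PRO2 there were lost as well. In mutant RNA at 6 h against 0 h it ended those of HIS6, HOM3 and THR1 (0.099, 0.199 and 0.0546). Falls in RNA are therefore relative to the TMM scale.

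**Figure D1:**
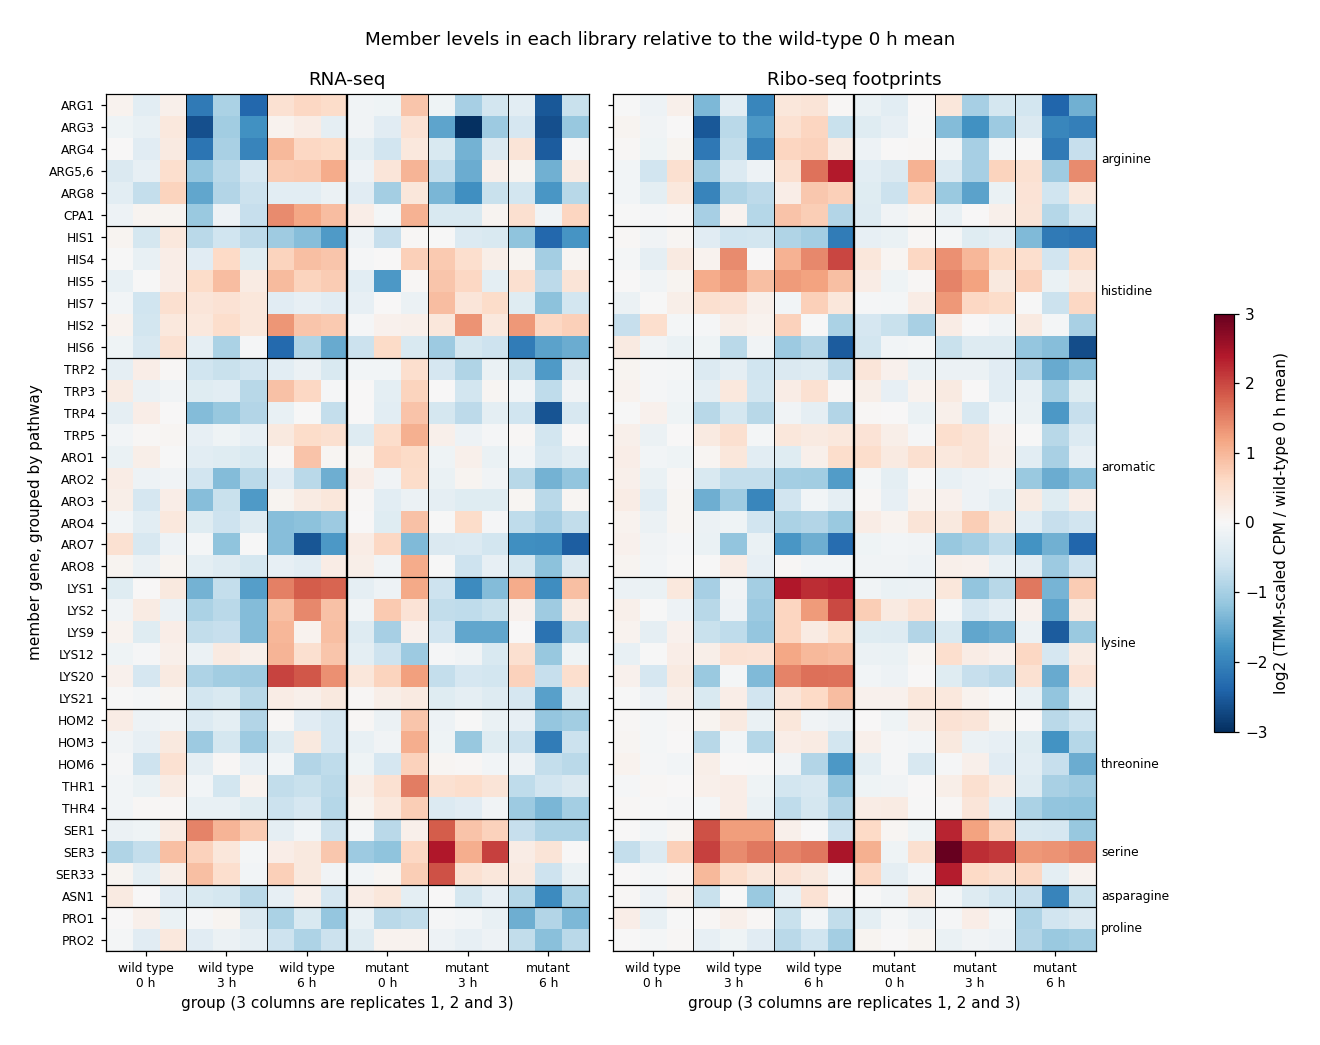
Level of the members (rows, grouped by pathway; 1 of the 40 is left out) in each RNA-seq (left) and Ribo-seq (right) library, as log2 of TMM-scaled CPM over the wild-type 0 h mean of that assay; the 3 columns of a group are replicates 1, 2 and 3, and colours stop at 3 in either direction. Most lysine and arginine rows turn from blue at 3 h to red at 6 h in the wild type, serine rows are red at 3 h in both strains, and the middle column of the mutant at 6 h is bluer than its neighbours.

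**Figure D2:**
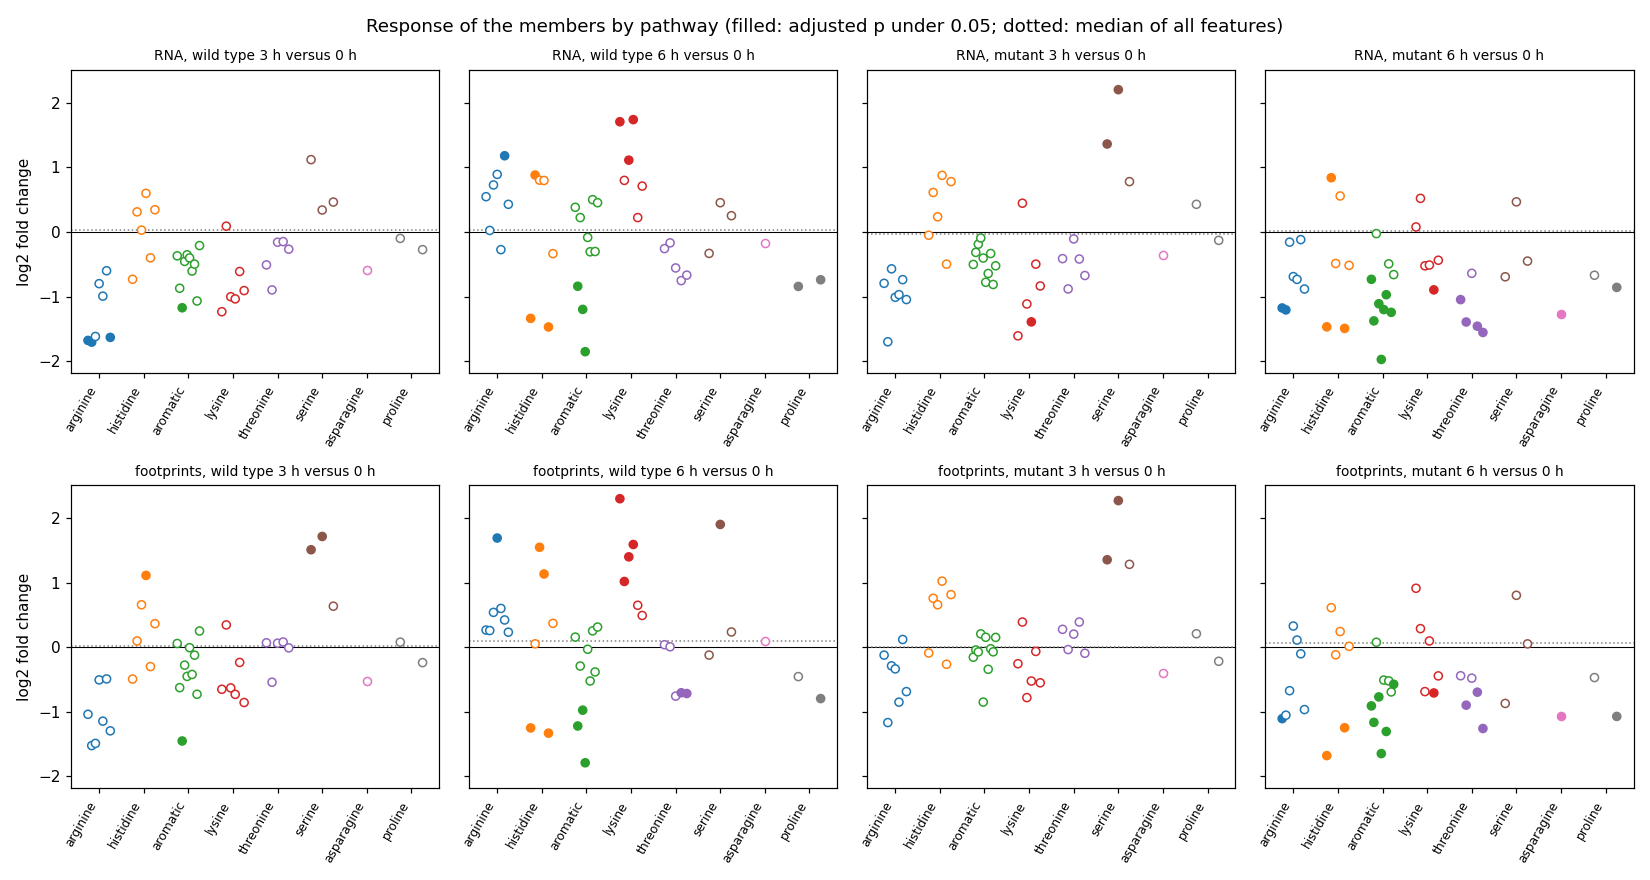
Log2 fold change against 0 h of each member, by pathway, in RNA (top) and footprints (bottom) for each strain at 3 h and 6 h; filled points had an adjusted p under 0.05 and the dotted line is the median of all features. In wild-type footprints at 6 h, 4 of 6 lysine genes are filled above 0, with 28.5% of all features called higher. In mutant footprints at 6 h the filled points lie below 0 in all pathways that have one.

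Lysine synthesis gave the highest rise. In wild-type footprints at 6 h, 4 of the 6 genes rose (LYS1, LYS20, LYS2 and LYS12), compared with 28.5% of all features. The other lysine genes were higher without a call, and the median log2 fold change of the 6 was 1.21. In RNA, LYS20, LYS1 and LYS2 rose, with 19.2% of all features called higher. At 3 h none of the 6 was called in the wild type, and 5 of 6 had lower levels than at 0 h in either assay.

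LYS1 (YIR034C) encodes saccharopine dehydrogenase, the last step. Its wild-type footprint levels were 178, 176 and 249.8 CPM at 0 h, 100.1, 186 and 99.6 CPM at 3 h and 1069.6, 927 and 976 CPM at 6 h. The 6 h libraries all lay above the others, with a log2 fold change against 0 h of 2.30 (SE 0.54, adjusted p = 0.00208), which is 4.91-fold. In wild-type RNA, LYS1 was at 75.2, 96.5 and 117 CPM at 0 h, 35.8, 58.5 and 30.8 CPM at 3 h and 274, 336 and 324 CPM at 6 h. The rise from 3 h to 6 h was 7.66-fold in RNA (adjusted p = 0.00043) and 7.71-fold in footprints (adjusted p = 0.000725), without overlap of the libraries.

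LYS1 footprints in the mutant were 187, 175 and 179 CPM at 0 h, 253, 88.9 and 113 CPM at 3 h and 600.3, 76.3 and 340.4 CPM at 6 h, and the change at 6 h was not called (0.91, adjusted p = 0.153). LYS1 RNA in the mutant was 79.4, 86.3 and 213 CPM at 0 h, 62.6, 25.9 and 38.8 CPM at 3 h and 207, 26.3 and 179.5 CPM at 6 h. At 6 h, replicates 1 and 3 were above replicate 2 by several fold in both assays, and without replicate 2 the footprint change against 0 h was 1.39 with an adjusted p of 0.0103. The 3 h to 6 h rise in RNA was called although the libraries overlapped (1.68, adjusted p = 0.0293).

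LYS20 (YDL182W) and LYS21 (YDL131W) encode the paralogous homocitrate synthases of the first step, whose reads could be shared by the authors' counting. LYS20 footprints in the wild type were 247, 159.6 and 274 CPM at 0 h, 105, 217 and 90.2 CPM at 3 h and 633, 716 and 704 CPM at 6 h, and in the mutant at 6 h 311, 79.5 and 302 CPM. The wild type rose by 1.59 on the log2 scale against 0 h (SE 0.41, adjusted p = 0.00445), and none of its 6 h libraries was reached by a mutant library.

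LYS20 RNA in the wild type was 166, 106 and 182 CPM at 0 h, 80.2, 74 and 72.2 CPM at 3 h and 616, 554 and 394 CPM at 6 h, a 3.33-fold rise at 6 h against 0 h (adjusted p = 5e-04). Mutant RNA was 193, 240.3 and 353 CPM at 0 h, 92, 107 and 103 CPM at 3 h and 243, 94.2 and 216 CPM at 6 h. It fell at 3 h by 1.39 on the log2 scale (adjusted p = 0.0299), with no overlap of the libraries. That call was lost when mutant 0 h replicate 2 or 3, or any one mutant 3 h library, was left out, with adjusted p-values of 0.0519 to 0.138.

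LYS2 (YBR115C) encodes aminoadipate reductase. Its footprints in the wild type were 949, 839.9 and 759 CPM at 0 h, 479.7, 768 and 398 CPM at 3 h and 1317, 2058 and 3335 CPM at 6 h. All libraries at 6 h were higher than those at 0 h (log2 change 1.40 ± 0.41 SE, adjusted p = 0.00929). Without wild-type 6 h replicate 3, which was the highest, the log2 fold change was 0.99 and the adjusted p 0.0606. LYS2 RNA was 368, 473 and 355 CPM at 0 h, 206, 227 and 162 CPM at 3 h and 749, 1089 and 729 CPM at 6 h. The 6 h libraries again lay above the rest (log2 change 1.11 ± 0.34 SE, adjusted p = 0.0123). Leaving out wild-type 0 h replicate 1 gave an adjusted p of 0.0523 for LYS2 RNA and 0.0633 for LYS1 RNA.

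LYS12 (YIL094C), homo-isocitrate dehydrogenase, rose in wild-type footprints from 177 ± 26.5 to 358 ± 31.4 CPM (log2 change 1.02 ± 0.25 SE, adjusted p = 0.00288). LYS9 (YNR050C), the other saccharopine dehydrogenase, and LYS21 rose between 3 h and 6 h in both assays of the wild type, LYS9 by 1.35 and LYS21 by 0.88 on the log2 scale in footprints (adjusted p = 0.019 and 0.0167). In the mutant, LYS21 was the one lysine gene called at 6 h against 0 h, and it fell in both assays (footprints -0.71, adjusted p = 0.0385; RNA -0.90, adjusted p = 0.0198). Without mutant 6 h replicate 2 neither LYS21 call remained (adjusted p = 0.172 in footprints and 0.162 in RNA), and LYS12 was called higher in RNA (0.92, adjusted p = 0.0325).

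Arginine genes were lower at 3 h and rose afterwards in the wild type. At 3 h in the wild type, all 7 had lower RNA than at 0 h, with a median log2 fold change of -1.62, and ARG1 and ARG3 were among those called. In footprints all 7 were lower too (median -1.14) and none was called. From 3 h to 6 h, 6 of 7 rose in each assay, compared with 11.5% of all features in RNA and 21.7% in footprints. Against 0 h, the genes called at 6 h were CPA1 in RNA and ARG5,6 in footprints, both higher.

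ARG1 (YOL058W), argininosuccinate synthetase, was at 1388, 1042 and 1430.3 CPM in wild-type RNA at 0 h, 294, 666 and 253 CPM at 3 h and 1779.9, 1979 and 1884 CPM at 6 h. The 3 h libraries were all below the others, a 3.2-fold fall (adjusted p = 0.0317) followed by a 4.67-fold rise (adjusted p = 0.00122). ARG3 (YJL088W), ornithine carbamoyltransferase, had RNA levels of 572, 535 and 777 CPM at 0 h and 100.4, 304 and 178 CPM at 3 h (log2 change -1.71 ± 0.48 SE, adjusted p = 0.0454). The groups of ARG3 did not overlap.

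Both calls at 3 h rested on full groups. Without wild-type 3 h replicate 3 the adjusted p was 0.147 for ARG1 and 0.133 for ARG3, and without wild-type 3 h replicate 1 it was 0.128 and 0.184. Leaving out wild-type 0 h replicate 1 or 3 also took both past 0.05 (0.0955 to 0.159), as did wild-type 0 h replicate 2 for ARG3 (0.0754).

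ARG5,6 (YER069W) encodes a precursor cleaved into acetylglutamate kinase and acetylglutamyl-phosphate reductase. Its footprints were 396, 282 and 585 CPM at 0 h, 201, 314 and 376 CPM at 3 h and 586, 1312 and 2179 CPM at 6 h in the wild type. The lowest 6 h library was barely above the highest 0 h library (log2 change 1.69 ± 0.61 SE, adjusted p = 0.0295), and without wild-type 6 h replicate 3 the log2 fold change was 1.17 with an adjusted p of 0.146. The adjusted p was 0.0829 without wild-type 0 h replicate 1, 0.101 without 0 h replicate 2 and 0.0506 without 6 h replicate 2. Mutant footprints of ARG5,6 were 337, 309.8 and 862 CPM at 0 h, 317, 213 and 667 CPM at 3 h and 579, 201 and 1124 CPM at 6 h, overlapping at all times.

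ARG5,6 RNA in the wild type was 503, 569 and 950.3 CPM at 0 h, 302, 383 and 479 CPM at 3 h and 1142, 1162 and 1446 CPM at 6 h. It rose from 3 h to 6 h without overlap (log2 change 1.69 ± 0.43 SE, adjusted p = 0.00759). In the mutant it was 609, 863 and 1377 CPM at 0 h, 409, 240.3 and 752 CPM at 3 h and 712, 249 and 805 CPM at 6 h, again with overlap. The 3 h to 6 h rise in wild-type footprints (2.19, adjusted p = 0.0115) lost its call without wild-type 3 h replicate 1 (0.0552) or 6 h replicate 3 (0.0613).

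ARG4 (YHR018C), argininosuccinate lyase, rose from 204, 478 and 237 CPM at 3 h to 1824, 1433 and 1396 CPM at 6 h in wild-type RNA, 5.07-fold (adjusted p = 0.00175). Its footprints rose from 144, 382 and 161 to 1008, 1031 and 759 CPM, 4.07-fold (adjusted p = 0.00241). ARG3 footprints rose from 90.6, 302 and 159 to 729, 828 and 334 CPM over the same hours (log2 change 1.78 ± 0.47 SE, adjusted p = 0.00728). CPA1 (YOR303W), the small subunit of carbamoyl phosphate synthetase, had RNA levels of 360.4, 424 and 423 CPM at 0 h and 1075, 894 and 770.1 CPM at 6 h in the wild type (log2 change 1.18 ± 0.33 SE, adjusted p = 0.0082).

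In the mutant all 7 arginine genes were below 0 h in RNA at 3 h (median -0.97) and none was called. At 6 h ARG1 and ARG3 were called lower in RNA (-1.18 and -1.21, adjusted p = 0.0374 and 0.0471) and ARG1 in footprints (-1.10, adjusted p = 0.0467). Without mutant 6 h replicate 2 none of these was called (adjusted p = 0.197, 0.23 and 0.178 for ARG1 RNA, ARG3 RNA and ARG1 footprints). No arginine gene was called between 3 h and 6 h in the mutant.

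The histidine genes split. In wild-type footprints at 6 h, HIS4 and HIS5 rose and HIS1 and HIS6 fell, and HIS2 and HIS7 were not called. HIS1 and HIS6 fell in the mutant as well, in both assays, while HIS4 and HIS5 were not called there at 6 h. Of all features, 28.5% were called higher and 24.3% lower in wild-type footprints at 6 h. In the mutant 20.9% were called lower in RNA and 24.5% in footprints.

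HIS1 (YER055C) encodes ATP phosphoribosyltransferase, the first step. Its wild-type footprints were 498, 454 and 511 CPM at 0 h, 386, 323 and 332 CPM at 3 h and 263, 240.3 and 114 CPM at 6 h (log2 change -1.25 ± 0.29 SE, adjusted p = 0.00188). Mutant footprints were 413, 422 and 499 CPM at 0 h, 471, 378 and 406 CPM at 3 h and 194, 112 and 109 CPM at 6 h (log2 change -1.68 ± 0.29 SE, adjusted p = 0.000216). In both strains the 6 h libraries were the lowest, and leaving out any single library kept the call against 0 h.

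HIS1 RNA was 1617, 1066 and 1914 CPM at 0 h, 869.7, 1016 and 889 CPM at 3 h and 727, 637 and 474 CPM at 6 h in the wild type (log2 change -1.34 ± 0.32 SE, adjusted p = 0.00253). Mutant RNA was at 1379.8, 943 and 1574 CPM at 0 h, 1513, 1146 and 1117 CPM at 3 h and 666, 299.9 and 446 CPM at 6 h (log2 change -1.47 ± 0.32 SE, adjusted p = 0.00107), where replicate 2 was the lowest. The fall in wild-type footprints between 3 h and 6 h (-0.76, adjusted p = 0.0432) lost its call without wild-type 3 h replicate 1 (0.139), 3 h replicate 3 (0.0781) or 6 h replicate 3 (0.164).

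HIS6 (YIL020C), an isomerase of the middle of the pathway, was among the members with the fewest counts. Its footprints were 65.1, 50.6 and 47.4 CPM at 0 h, 49.6, 31.1 and 50.7 CPM at 3 h and 25.4, 29.5 and 9.71 CPM at 6 h in the wild type (log2 change -1.33 ± 0.37 SE, adjusted p = 0.0068). In the mutant they were 37.2, 51.6 and 52.4 CPM at 0 h and 24.2, 22.5 and 8.62 CPM at 6 h (log2 change -1.25 ± 0.38 SE, adjusted p = 0.0112), so both strains fell without overlap. RNA fell from 67.7, 53.1 and 102 to 14.8, 39.8 and 26.2 CPM in the wild type (adjusted p = 0.0062), where replicate 1 at 6 h rested on 2 counts. In the mutant it fell from 47.4, 111 and 54.1 to 17.4, 24.3 and 26.3 CPM (adjusted p = 0.00331). The wild-type RNA call was lost without 6 h replicate 3 (0.0706). The 3 h to 6 h fall in wild-type footprints (adjusted p = 0.0328) was lost without 3 h replicate 1 (0.106), 3 h replicate 3 (0.0961) or 6 h replicate 3 (0.129).

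HIS4 (YCL030C), an enzyme of several histidine steps in one chain, had footprints of 861, 739 and 1084 CPM at 0 h and 1845, 2428 and 3562 CPM at 6 h in the wild type (log2 change 1.54 ± 0.40 SE, adjusted p = 0.00386). All 3 libraries at 6 h were above those at 0 h. At 3 h the wild-type libraries were 956, 2372 and 904 CPM, with replicate 2 far above the other two. HIS5 (YIL116W), histidinol-phosphate aminotransferase, rose already at 3 h, from 139.6, 128 and 145 to 299, 336 and 257 CPM (log2 change 1.11 ± 0.28 SE, adjusted p = 0.0281), and stood at 302 ± 38.4 CPM at 6 h (adjusted p = 0.00335 against 0 h). The 3 h call was lost without any one of the wild-type 0 h libraries, or without 3 h replicate 1 or 2 (adjusted p = 0.0773 to 0.12).

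HIS2 (YFR025C), histidinolphosphatase, was the one member that rose in RNA at 6 h in the mutant, from 55.1, 61.6 and 63.2 to 140.1, 87.1 and 93.1 CPM (log2 change 0.84 ± 0.32 SE, adjusted p = 0.0426). It rose in the wild type too, from 61.1, 38.6 and 70.1 to 141, 101 and 98.1 CPM (log2 change 0.88 ± 0.33 SE, adjusted p = 0.0411). Its footprints were 20.9, 48 and 32.2 CPM at 0 h and 54.7, 33.2 and 17.5 CPM at 6 h in the wild type, which overlap. The RNA calls were lost without wild-type 0 h replicate 1 or 2 or any wild-type 6 h library (0.051 to 0.112), and without any mutant 0 h library or mutant 6 h replicate 1 (0.0662 to 0.17). HIS7 (YBR248C), imidazole glycerol phosphate synthase, fell in mutant RNA from 429, 292 and 333 CPM at 3 h to 178, 96.2 and 154 CPM at 6 h (log2 change -1.29 ± 0.31 SE, adjusted p = 0.0048).

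SER1 and SER3 were higher at 3 h in footprints of both strains, and SER1 then fell in both. SER3 (YER081W) and SER33 (YIL074C) encode paralogous phosphoglycerate dehydrogenases of the first step, and SER1 (YOR184W) the phosphoserine aminotransferase of the second.

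SER1 footprints in the wild type were 373, 344 and 385 CPM at 0 h, 1391, 872 and 870.1 CPM at 3 h and 406, 369 and 238 CPM at 6 h. In the mutant they were 553, 380.1 and 337 CPM at 0 h, 1801, 848 and 592 CPM at 3 h and 263, 261 and 168 CPM at 6 h. The 3 h libraries were above all others of the strain, a 2.84-fold rise in the wild type (adjusted p = 0.0215) and a 2.55-fold rise in the mutant (adjusted p = 0.0492). They were followed by falls of 3.09-fold and 4.66-fold to 6 h (adjusted p = 0.0028 and 0.000394).

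SER1 RNA was 277, 285 and 371 CPM at 0 h, 869, 633 and 529.7 CPM at 3 h and 259.6, 293 and 199 CPM at 6 h in the wild type. The fall after 3 h was called (log2 change -1.45 ± 0.34 SE, adjusted p = 0.00405) and the change at 3 h was not (1.12, adjusted p = 0.0616). In the mutant SER1 RNA was 298, 179 and 347 CPM at 0 h, 1089.9, 566 and 499.5 CPM at 3 h and 193, 163 and 163 CPM at 6 h, rising 2.57-fold (adjusted p = 0.0261) and falling 4.15-fold (adjusted p = 0.000334). The rises at 3 h depended on single libraries: without mutant 3 h replicate 1 the adjusted p was 0.219 in RNA and 0.285 in footprints. They were also lost without mutant 0 h replicate 2 in RNA (0.103), without any mutant 0 h library or 3 h replicate 2 in mutant footprints (0.0654 to 0.177), and without any wild-type 0 h library or 3 h replicate 1 in wild-type footprints (0.0701 to 0.1).

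SER3 footprints in the wild type were 165, 207 and 447 CPM at 0 h, 1140.5, 736 and 821 CPM at 3 h and 762, 823 and 1483 CPM at 6 h. They rose at 3 h (log2 change 1.71 ± 0.45 SE, adjusted p = 0.0349) and at 6 h against 0 h (log2 change 1.90 ± 0.46 SE, adjusted p = 0.00254). In the mutant they were 574, 251 and 383 CPM at 0 h, 3366, 1260.5 and 1194 CPM at 3 h and 674, 691 and 744 CPM at 6 h. This was a 4.81-fold rise at 3 h (adjusted p = 0.0116) and a 2.76-fold fall after it (adjusted p = 0.0192). All libraries at 3 h and 6 h were above those at 0 h in both strains. Mutant replicate 1 at 3 h was far above the other two: without it the rise was 1.59 on the log2 scale with an adjusted p of 0.0592, and the later fall was 0.83 with an adjusted p of 0.145.

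SER3 RNA was 144, 164 and 505 CPM at 0 h, 439.9, 345 and 262 CPM at 3 h and 312, 333 and 474 CPM at 6 h in the wild type, where replicate 3 at 0 h was high and no change was called. In the mutant it was 128, 117 and 417 CPM at 0 h, 1443, 577 and 1126 CPM at 3 h and 317, 357 and 274 CPM at 6 h. It rose at 3 h (log2 change 2.20 ± 0.49 SE, adjusted p = 0.0138) and fell from 3 h to 6 h (log2 change -1.74 ± 0.48 SE, adjusted p = 0.0146). Leaving out single libraries ended the 3 h call of SER3 in mutant RNA (0 h replicate 2 or 3 h replicate 1, 0.0675 and 0.0738) and in mutant footprints (0 h replicate 2 or 3, 0.0709 and 0.071). In wild-type footprints the same held (0 h replicate 1 or 2 or any 3 h library, 0.0537 to 0.189). The later falls in the mutant were lost without 3 h replicate 1, 6 h replicate 1 or 6 h replicate 3 in RNA (0.058 to 0.0752) and also without 6 h replicate 1 (0.0556) or 6 h replicate 2 (0.0538) in footprints.

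SER33 was at 113 ± 3.49 CPM at 0 h and 175 ± 40.9 CPM at 3 h in wild-type footprints, without a call. Its one call with separate libraries was the fall in mutant RNA from 427, 155 and 142 to 136, 74 and 98 CPM (log2 change -1.23 ± 0.40 SE, adjusted p = 0.0349). Without mutant 3 h replicate 1 that change was -0.52 with an adjusted p of 0.407. The call was also lost without mutant 6 h replicate 2 (0.156) or 6 h replicate 3 (0.119).

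**Figure D3:**
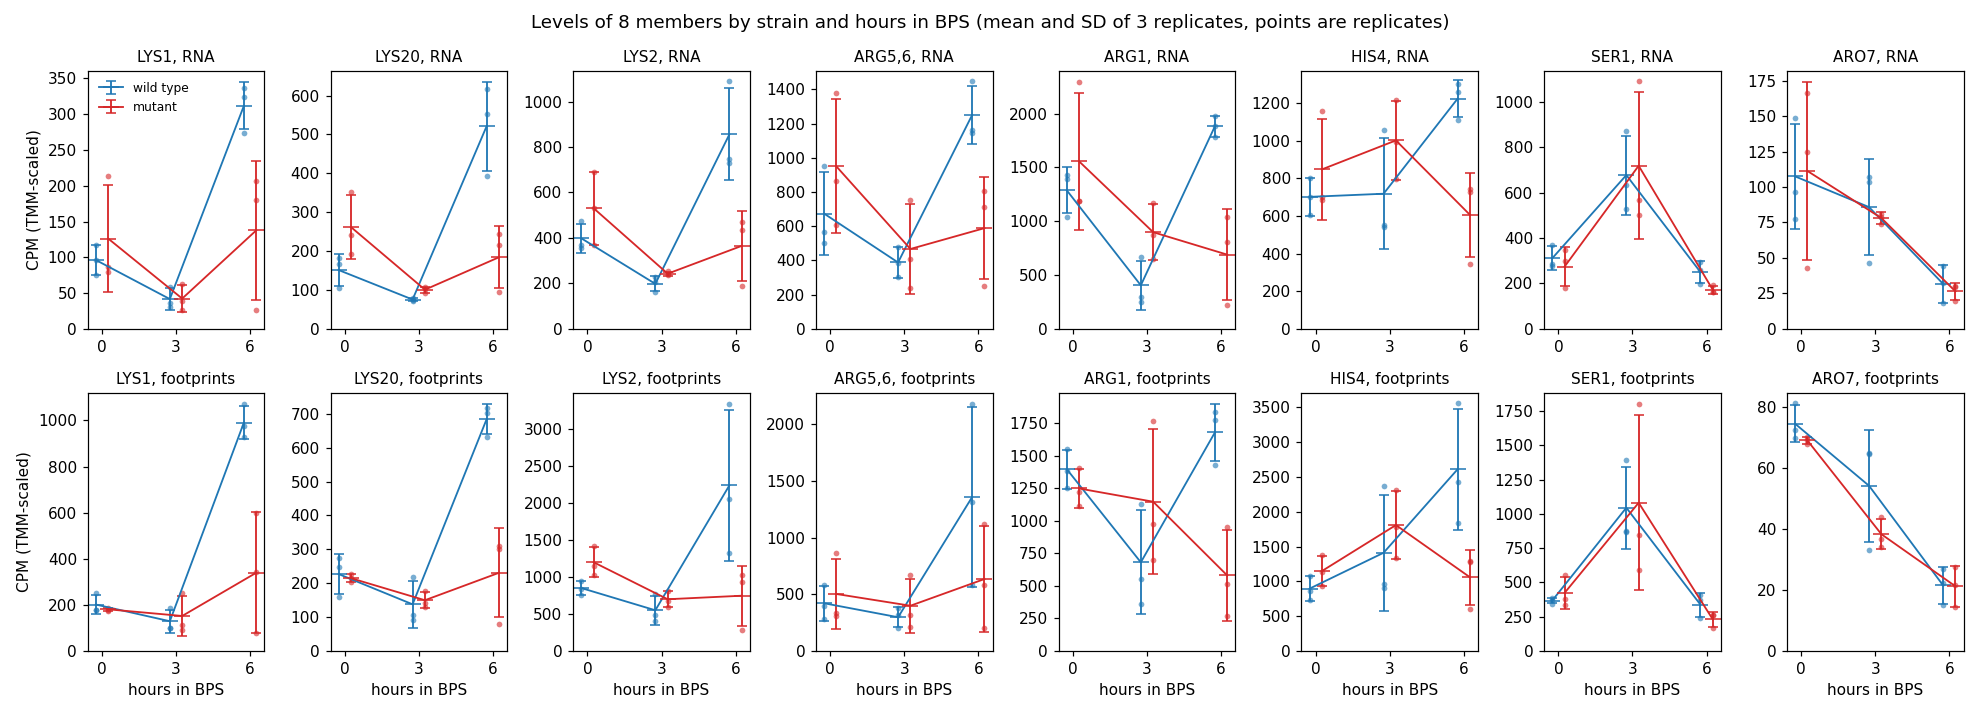
TMM-scaled CPM of 8 members against hours in BPS in RNA (top) and footprints (bottom); dots are replicates, and lines join means with the SD of 3 replicates for the wild type (blue) and the mutant (red), drawn with a small horizontal offset. In the wild type LYS1, LYS20 and LYS2 are higher at 6 h than at 3 h in every replicate, SER1 peaks at 3 h in both strains, and ARO7 declines in both.

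Part of the aromatic pathway was lower at 6 h in both strains. In the wild type, ARO7, ARO2 and ARO4 (3 of 10) fell in both assays at 6 h and no aromatic gene rose against 0 h. Of all features, 16.7% were called lower in wild-type RNA and 24.3% in wild-type footprints. In the mutant, 7 of 10 were lower in RNA and 6 of 10 in footprints, with ARO7, TRP2, ARO2, ARO4 and ARO1 called in both assays, TRP4 and ARO8 in RNA and TRP5 in footprints. Over all features 20.9% were called lower in mutant RNA and 24.5% in mutant footprints. The RNA calls of TRP2, ARO1 and TRP4 were lost without mutant 6 h replicate 2 (adjusted p = 0.145, 0.181 and 0.0932), which left 4 of 10, and so was the footprint call of TRP5 (0.195), which left 5 of 10.

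ARO7 (YPR060C) encodes chorismate mutase, the branch point towards phenylalanine and tyrosine. Its footprints were 81.4, 69.8 and 72.5 CPM at 0 h, 65.1, 33 and 64.6 CPM at 3 h and 22.3, 27 and 15.2 CPM at 6 h in the wild type, a 3.45-fold fall against 0 h (adjusted p = 0.000117). Mutant footprints were at 67.9, 70.3 and 69.1 CPM at 0 h, 34.1, 36.9 and 43.8 CPM at 3 h and 21.7, 27.6 and 14.4 CPM at 6 h, a 3.13-fold fall (adjusted p = 0.000249). The 6 h libraries were the lowest in each strain, and leaving out any one library kept the call against 0 h.

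ARO7 RNA was 149, 77.2 and 96.5 CPM at 0 h, 103, 46.6 and 107 CPM at 3 h and 44.5, 18.1 and 32.6 CPM at 6 h in the wild type (log2 change -1.85 ± 0.46 SE, adjusted p = 0.00332 at 6 h). Mutant RNA was at 125, 166 and 42.9 CPM at 0 h, 79.2, 81.3 and 73.7 CPM at 3 h and 30.1, 29.4 and 19.5 CPM at 6 h (log2 change -1.97 ± 0.43 SE, adjusted p = 0.00111). The RNA falls from 3 h to 6 h (-1.50 and -1.57, adjusted p = 0.0215 and 0.0131) were lost without wild-type 3 h replicate 1 or 3 or 6 h replicate 2 or 3 (0.0757 to 0.101), and without mutant 6 h replicate 3 (0.0783).

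ARO2 (YGL148W), chorismate synthase, had footprints of 733, 576 and 675 CPM at 0 h and 328, 319 and 206 CPM at 6 h in the wild type (log2 change -1.22 ± 0.21 SE, adjusted p = 0.000224). Mutant footprints were at 637, 538 and 652 CPM at 0 h, 568, 591 and 617 CPM at 3 h and 305, 236 and 276 CPM at 6 h (log2 change -1.16 ± 0.21 SE, adjusted p = 0.000312). The mutant fall lay after 3 h. Wild-type ARO2 RNA was 624, 482 and 494 CPM at 0 h and 423, 304 and 193 CPM at 6 h (log2 change -0.84 ± 0.32 SE, adjusted p = 0.0439). That RNA call was lost without any wild-type 0 h library or without 6 h replicate 2 or 3 (0.0575 to 0.302). It was also lost with RLE factors (0.0916), DESeq2 (0.0574), no low-count filter (0.0614) or only the groups compared (0.0553). With total counts alone the change in wild-type ARO2 RNA was -0.27 (adjusted p = 0.507).

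ARO3 (YDR035W) and ARO4 (YBR249C) encode the paralogous enzymes that open the shikimate pathway, inhibited by phenylalanine and by tyrosine respectively, and they changed at different times. ARO3 footprints in the wild type fell from 524, 361 and 466 to 164, 215 and 115 CPM at 3 h (log2 change -1.45 ± 0.26 SE, adjusted p = 0.00319), with no overlap, and were 368 ± 64.1 CPM at 6 h. ARO3 RNA fell from 493, 309 and 503 to 178, 275 and 134 CPM (log2 change -1.17 ± 0.32 SE, adjusted p = 0.035). That call was lost without wild-type 0 h replicate 1 or 3 or 3 h replicate 1 or 3 (0.118 to 0.176). In mutant footprints ARO3 was at 492, 405 and 366 CPM at 3 h, above every wild-type 3 h library.

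ARO4 footprints fell from 1502, 1224 and 1452 CPM at 0 h to 722, 758 and 648 CPM at 6 h in the wild type (log2 change -0.97 ± 0.20 SE, adjusted p = 0.000987). ARO4 RNA fell from 925, 781 and 1218 to 400.5, 412 and 460.3 CPM (log2 change -1.20 ± 0.31 SE, adjusted p = 0.00459). The 6 h libraries of both assays lay below those at 0 h, and ARO4 fell in the mutant too (-0.77 in footprints, adjusted p = 0.00498). TRP2 (YER090W), which encodes a subunit of anthranilate synthase, fell in mutant footprints from 622, 526 and 415 to 262, 168 and 202 CPM (log2 change -1.30 ± 0.22 SE, adjusted p = 0.00017). In the wild type its footprints were 509, 468 and 464 CPM at 0 h and 354, 369.7 and 278 CPM at 6 h, which do not overlap, without a call (-0.52, adjusted p = 0.0511).

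Among threonine genes, THR1 and THR4 fell in wild-type footprints at 6 h, where 24.3% of all features were called lower. No threonine gene was called in wild-type RNA at 6 h against 0 h. In the mutant, THR4, THR1 and HOM3 fell in both assays and HOM2 in RNA, with 20.9% of all features called lower in RNA and 24.5% in footprints. Without mutant 6 h replicate 2 the adjusted p was 0.0702 for THR1 and 0.13 for HOM3 in footprints. In RNA it was 0.0692 for HOM3 and 0.0792 for HOM2, so that the RNA calls went from 4 of 5 to 2 of 5.

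THR4 (YCR053W) encodes threonine synthase, the last step. Its footprints were 1074, 1041 and 1009 CPM at 0 h, 996, 1197 and 907 CPM at 3 h and 618, 719 and 564 CPM at 6 h in the wild type (log2 change -0.72 ± 0.20 SE, adjusted p = 0.00736 against 0 h). Mutant footprints were at 1206, 1241 and 1036 CPM at 0 h, 1064, 1333 and 865 CPM at 3 h and 544, 458 and 454 CPM at 6 h (log2 change -1.26 ± 0.20 SE, adjusted p = 0.000132). In both strains the 6 h libraries were below all others.

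THR4 RNA was 508, 545 and 552 CPM at 0 h, 460.1, 456 and 416 CPM at 3 h and 341, 376 and 296 CPM at 6 h in the wild type, which did not reach a call at 6 h (-0.67, adjusted p = 0.0545). Mutant RNA was at 565, 666 and 886 CPM at 0 h, 405, 422 and 500.1 CPM at 3 h and 249.7, 208 and 264 CPM at 6 h (log2 change -1.55 ± 0.27 SE, adjusted p = 0.000107).

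THR1 (YHR025W), homoserine kinase, fell after 3 h, in wild-type footprints from 399, 412 and 327 to 246, 257 and 157 CPM (adjusted p = 0.0127, and 0.0579 without wild-type 6 h replicate 3). Mutant footprints fell from 408, 504 and 427 to 273, 184 and 172 CPM (log2 change -1.08 ± 0.23 SE, adjusted p = 0.002). Mutant THR1 RNA fell from 268, 327 and 686 CPM at 0 h to 138, 159 and 174 CPM at 6 h (log2 change -1.46 ± 0.32 SE, adjusted p = 0.0012). HOM3 (YER052C), the aspartate kinase that opens the pathway, fell in mutant RNA from 249, 271 and 622 to 186, 67.9 and 184 CPM (log2 change -1.39 ± 0.41 SE, adjusted p = 0.00913). Without mutant 0 h replicate 3 or 6 h replicate 2 its adjusted p was 0.12 or 0.0692.

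ASN1 (YPR145W), asparagine synthetase, was not called against 0 h in the wild type and fell in the mutant. Its wild-type footprints were 1244, 1091 and 1296 CPM at 0 h, 759, 1201 and 563 CPM at 3 h and 1036, 1623 and 1240.4 CPM at 6 h, with no call (0.10 at 6 h, adjusted p = 0.805). Mutant footprints were 1199, 1122 and 1474 CPM at 0 h, 1142, 924 and 822 CPM at 3 h and 751, 308 and 761 CPM at 6 h (log2 change -1.06 ± 0.33 SE, adjusted p = 0.0134). Replicate 2 at 6 h was again the lowest, and all 3 libraries at 6 h lay below those at 0 h. Without replicate 2 the footprint change was -0.74 with an adjusted p of 0.0578. ASN1 RNA was 962, 815 and 633 CPM at 0 h, 582, 556 and 457 CPM at 3 h and 682, 897 and 567 CPM at 6 h in the wild type. Mutant RNA was at 932, 1023 and 656 CPM at 0 h, 808, 555 and 675 CPM at 3 h and 443, 216 and 414 CPM at 6 h (log2 change -1.27 ± 0.32 SE, adjusted p = 0.00294).

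PRO2 (YOR323C), glutamyl phosphate reductase, fell in both strains and both assays. Its footprints were 569, 539.9 and 577 CPM at 0 h, 473, 511 and 444 CPM at 3 h and 323, 370.2 and 278 CPM at 6 h in the wild type (log2 change -0.80 ± 0.17 SE, adjusted p = 0.00124). In the mutant they were 598, 569.7 and 596 CPM at 0 h, 489.6, 523 and 504 CPM at 3 h and 305, 260.2 and 274 CPM at 6 h (log2 change -1.07 ± 0.17 SE, adjusted p = 0.000127). The 6 h libraries were the lowest of each strain. PRO2 RNA was 309.5, 256 and 401 CPM at 0 h, 254, 283 and 269 CPM at 3 h and 208, 170.1 and 205 CPM at 6 h in the wild type (-0.74, adjusted p = 0.0431). The wild-type RNA call lies close to the threshold and was lost with total counts alone. Mutant PRO2 RNA was 248, 345 and 346 CPM at 0 h, 291, 274 and 289 CPM at 3 h and 194, 136 and 185 CPM at 6 h (-0.86, adjusted p = 0.0166). Without mutant 6 h replicate 2 that RNA call was lost (adjusted p = 0.113). PRO1 (YDR300C), the glutamyl kinase before it, fell in wild-type RNA from 129.9, 145 and 113 to 66.7, 94.1 and 58.2 CPM (log2 change -0.84 ± 0.31 SE, adjusted p = 0.0352). The PRO1 call was lost without wild-type 0 h replicate 1 or 2 or 6 h replicate 1 or 3 (0.079 to 0.253), with RLE factors (0.0632) and with DESeq2 (0.0555).

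Strains were compared directly at each time, which asks whether loss of Cth1 and Cth2 changed these genes. At 0 h no member was called in either assay by edgeR, with 2 in RNA and 0 in footprints at an unadjusted p under 0.05 and 1 feature in all called in each assay (0.0167% and 0.0188%). At 3 h no member was called in RNA (0.45% of all features, 0.416% higher and 0.0333% lower; 5 members at an unadjusted p under 0.05), and ARO3 was called higher in mutant footprints (0.865% of all features, 0.809% higher). Its levels at 3 h were 164, 215 and 115 CPM in the wild type and 492, 405 and 366 CPM in the mutant. The groups did not overlap (log2 change 1.35 ± 0.26 SE, adjusted p = 0.0128). The call was lost without wild-type 3 h replicate 1 (0.0585), wild-type 3 h replicate 3 (0.115) or mutant 3 h replicate 1 (0.084).

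At 6 h the called members were lysine genes, all lower in the mutant. LYS20 was called in RNA (0.783% of all features called, 0.566% higher and 0.216% lower), at 616, 554 and 394 CPM in the wild type and 243, 94.2 and 216 CPM in the mutant. The change was called lower (log2 change -1.48 ± 0.34 SE, adjusted p = 0.0404). With the replicate number as a block, which the check of pairing allowed for that comparison, 2 members were called in RNA. In footprints LYS2, LYS20 and LYS21 were called (6.27% of all features, 4.68% higher and 1.58% lower). LYS2 was at 1317, 2058 and 3335 CPM in the wild type and 931, 282 and 1023 CPM in the mutant, 3.01-fold lower (adjusted p = 0.0279). LYS20 was 2.98-fold lower (adjusted p = 0.0305). LYS21 was at 456, 538 and 667 CPM in the wild type and 305, 155 and 289 CPM in the mutant, 2.22-fold lower (adjusted p = 0.0144). None of these groups overlap.

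Beyond the calls, 37 of 40 members in RNA and 36 of 40 in footprints had lower fitted levels in the mutant at 6 h, with medians of -0.61 and -0.62 against -0.07 and -0.10 over all features. The mutant libraries lay wholly below the wild-type ones for 25 members in RNA, compared with 7.38% of all features, and for 18 in footprints, compared with 8.96%. All 6 lysine genes were among them in both assays, as were all 7 arginine genes in RNA and 3 of 7 in footprints.

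The differences were smaller without mutant replicate 2. Without it no member was called in either assay at 6 h, with adjusted p-values of 0.254 for LYS20 in RNA and 0.0916, 0.0813 and 0.0827 for LYS2, LYS20 and LYS21 in footprints. The medians over the members were then -0.41 in RNA and -0.47 in footprints. The LYS20 RNA call was also lost without any other single library of the comparison (0.0527 to 0.213). Those in footprints were lost without wild-type 6 h replicate 3 (0.0681 to 0.144), LYS2 and LYS20 also without wild-type 6 h replicate 2 (0.0577 and 0.0823). Without mutant 6 h replicate 1, by contrast, 14 members were called in footprints.

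The difference between strains in the change from 0 h to 3 h or 6 h in BPS was tested as an interaction. No member passed by edgeR at 3 h or 6 h in either assay; at an unadjusted p under 0.05 there were 2 at 3 h and 16 at 6 h in RNA, and 1 and 10 in footprints. Over all features, 0.0167% in RNA and 0.282% in footprints were called at 3 h, and 0.0333% and 2.97% at 6 h. DESeq2 called 2 members at 6 h in each assay and 1 at 3 h in footprints. The 6 h medians over the members were -0.84 in RNA and -0.74 in footprints, with 37 and 32 of 40 below 0, and they were -0.56 and -0.51 without mutant 6 h replicate 2. The rise of LYS20, LYS2 and LYS12 footprints against 0 h was called in the wild type and not in the mutant, but a difference between those responses was not called.

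**Figure D4:**
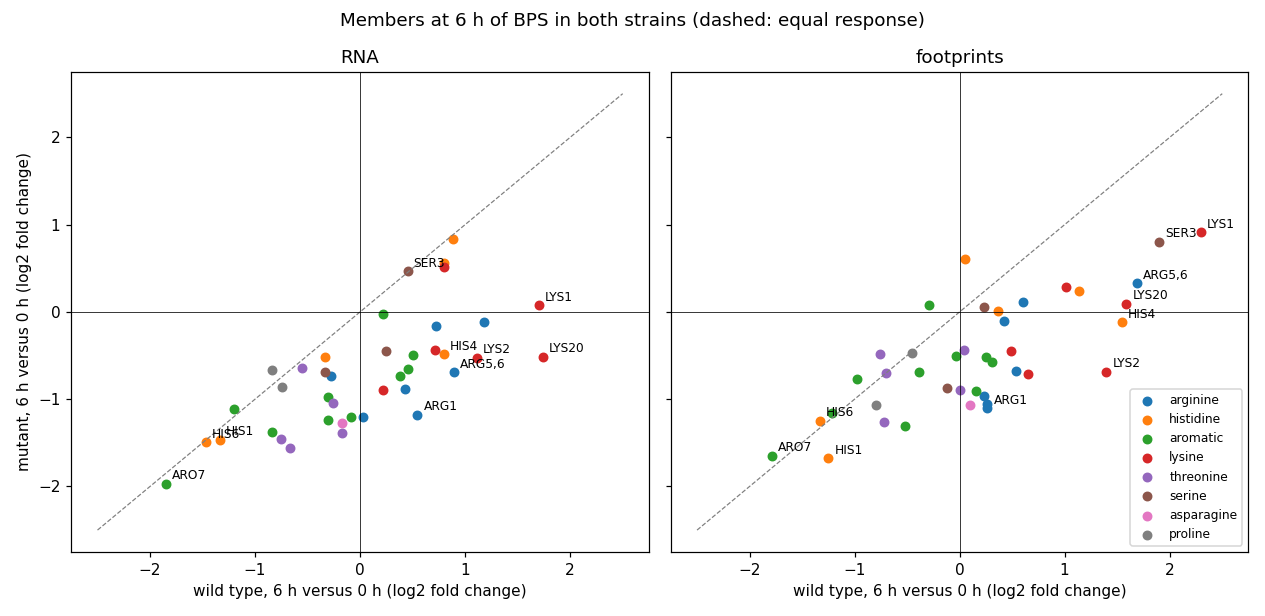
Log2 fold change at 6 h against 0 h in the mutant (vertical) against the wild type (horizontal) for each member in RNA (left) and footprints (right), coloured by pathway, with the line of equal response dashed. Lysine and arginine genes lie to the lower right of the line, with LYS1 at 2.30 and 0.91 in footprints, while ARO7 and HIS6 lie close to it.

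Translational efficiency (TE), the change in footprints minus the change in RNA, was not called for any member. In the 5 TE comparisons edgeR called 0 of 40 members and DESeq2 called 0. At an unadjusted p under 0.05 there were 0 members in 4 of them and 2 in the mutant at 3 h, ARO8 (0.94, adjusted p = 0.761) and THR1 (0.81, adjusted p = 0.799). Over all features, 0.0378% and 0.284% were called in the wild type at 3 h and 6 h, 0% and 1.68% in the mutant, and 0% for the strain difference at 6 h. The member medians at 6 h were 0.02 in the wild type and 0.18 in the mutant, against 0.10 and 0.11 over all features. At 3 h they were 0.26 in the wild type and 0.32 in the mutant, against 0.04 and 0.06 over all features. The TE change at 3 h was above 0 for 36 of 40 members in the wild type and 33 of 40 in the mutant, without a call. In a simulation of the wild-type 6 h TE test, 5.13% of changes of 1 and 51.8% of changes of 2 on the log2 scale were recovered, so that most changes of 1 would be missed at this depth.

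GCN4 was called in footprints and not in RNA, with footprints counted over a feature whose extent (with or without the upstream reading frames) is not given in the sources used here. Its RNA was 924, 1229.9 and 1649.9 CPM at 0 h, 996, 847 and 1413 CPM at 3 h and 1068, 952 and 1131 CPM at 6 h in the wild type, with no call. Its footprints were 265, 296 and 174 CPM at 0 h, 95.4, 114 and 88.3 CPM at 3 h and 562, 511 and 373 CPM at 6 h. These footprints rose against 0 h (log2 change 0.98 ± 0.40 SE, adjusted p = 0.0471) and against 3 h (log2 change 2.28 ± 0.41 SE, adjusted p = 0.000563). Neither call was rechecked with wild-type libraries left out or under other settings, and the first lies close to the threshold. The 3 h libraries were all below those at 0 h without a call (adjusted p = 0.0712).

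In the mutant, GCN4 footprints were 492, 472 and 733 CPM at 0 h, 231, 209 and 378 CPM at 3 h and 443, 108 and 258 CPM at 6 h. They fell at 6 h against 0 h (log2 change -1.07 ± 0.40 SE, adjusted p = 0.0338), with replicate 2 the lowest. Without replicate 2 that change was -0.68 with an adjusted p of 0.121. GCN4 RNA in the mutant was 973, 943 and 2346 CPM at 0 h, 757, 909.6 and 1208 CPM at 3 h and 973, 1162 and 1234 CPM at 6 h. The change in GCN4 TE was not called (wild type at 6 h 1.22, adjusted p = 0.411), nor was the strain difference in its 6 h footprint response (-2.05, adjusted p = 0.0599).

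Of the 8 regulators listed beside the members, GCN4, GCN2, ARG80 and ARG81 were called higher in wild-type footprints at 6 h, where 28.5% of all features were, GCN2 by 1.25 on the log2 scale (adjusted p = 0.000601). PCL5, a cyclin that promotes the breakdown of Gcn4, and LYS14 were called higher in wild-type RNA (1.62 and 0.98, adjusted p = 0.00875 and 0.0329). Of all features, 19.2% were called higher there. In mutant footprints at 6 h none of the 8 was higher, and GCN4 and LYS14 were lower, near the 24.5% of all features called lower. GCN2 was lower in mutant than in wild-type footprints at 6 h (-0.91, adjusted p = 0.0326), and without mutant 6 h replicate 2 this was -0.74 with an adjusted p of 0.204. LYS14 kept its call in the mutant without that replicate (-0.73, adjusted p = 0.0342).

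Of the 5 iron-sulfur enzymes of amino acid synthesis, LYS4, LEU1, ILV3 and GLT1 fell in the wild type at 3 h in both assays (median footprint log2 fold change of the list -2.49), LYS4 by 2.49 (adjusted p = 0.00569). LEU1, ILV3 and GLT1 were higher in mutant than in wild-type footprints at 3 h and 6 h, and their strain difference in response was called at both times (2.35, 1.71 and 3.20 at 6 h, adjusted p = 0.0052, 0.015 and 0.0061). Without mutant 6 h replicate 2 the 3 calls of that difference at 6 h remained (adjusted p = 0.0186, 0.0416 and 0.016). LYS4, which acts between the homocitrate synthases and LYS12, was at 168 ± 51, 29.9 ± 10.3 and 85.6 ± 35.1 CPM at 0 h, 3 h and 6 h in wild-type footprints.

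Of 9 other steps of the members' pathways, ARO9 was called higher and TYR1, SER2 and PRO3 lower in wild-type footprints at 6 h. In mutant footprints ARO9 was higher and SER2 lower. These were 44.4% and 22.2% of the list, below the 52.9% and 50.8% of all features called. ARO9, an aminotransferase of aromatic amino acid breakdown, rose 9.62-fold in the wild type (adjusted p = 0.000645) and 6.49-fold in the mutant (adjusted p = 0.00206). SER2, the phosphoserine phosphatase that ends serine synthesis, rose at 3 h in wild-type footprints (1.09, adjusted p = 0.0286) and fell from 3 h to 6 h (-1.95, adjusted p = 0.000122), as SER1 did. Of 8 steps of branched-chain synthesis without an iron cofactor, BAT1 and BAT2 rose and ILV5, ILV6 and LEU9 fell at 6 h in footprints of both strains. That was 62.5% of the list in each strain, near the 52.9% and 50.8% called over all features.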

How the data were processed

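The deposited tables hold whole-number counts of reads per gene for 36 libraries, with no normalization. The submitters' processing notes name cutadapt 3.4, Bowtie 1.1.2, STAR 2.7.9a and build R64 without giving their roles; the counter, the use of strand and the handling of reads that match several places are not given in the sources used here, so the paralogues SER3 and SER33, LYS20 and LYS21, and ARO3 and ARO4 are uncertain.

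Counts were fitted in edgeR 4.0.16 (R 4.3.3) by the quasi-likelihood F test, with all 18 libraries of an assay, TMM factors, filterByExpr at a minimum count of 10, Benjamini-Hochberg adjustment over all features and a threshold of 0.05. TE was the footprint contrast minus the RNA contrast in 1 model of 36 libraries. The fits were run on simulated data with changes of 1 and 2 on the log2 scale (wild type, 6 h against 0 h). In RNA, 14 of 105 genes given a change of 1 and 68 of 95 given a change of 2 were recovered (13.3% and 71.6%). In footprints these were 20 of 93 and 97 of 107 (21.5% and 90.7%). Of the calls, 6.82% in RNA and 7.14% in footprints were false. The fits held 6006 and 5315 genes. Recovery with as large a share of changed genes as the 35.9% and 52.9% called in these comparisons was not tested. Promoter windows were cut from the R64 genome and annotation.

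The members and lists were chosen with earlier results of these data known. Among called members whose libraries do not overlap, the 6 with the highest and the 6 with the lowest log2 change are named in each comparison of hours or strains, or fewer where fewer passed, and also the member of each pathway with the smallest p in wild-type footprints at 6 h; listed genes outside the members are named where called, and others to complete a count. The values of 1 member are not reported here; it stays in all counts and medians. Alternatives were RLE factors, total counts alone, DESeq2 1.42.0, all detected features, a fit to the compared groups alone, replicate and lysate blocks, and leaving out each library. Samples with the same number deviated together (every correlation over 0.1) in 5 of 11 RNA and 5 of 11 footprint comparisons, which is taken from the data, as the labels do not say that numbers mark a batch. Aliquots of 1 lysate gave both assays (mean correlation of deviations 0.342). Replicates are labelled biological, without saying what separated them.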

Additional observations from a re-analysis of the deposited data

How the results depend on the processing

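Counts of called members moved by over 1.5 times under several settings. None of the 86 calls of named members changed sign under any, but changes that were not called did: without mutant 6 h replicate 2 the RNA change at 6 h was 0.39 for ARG4, 0.13 for CPA1 and 0.28 for ARO3, all below 0 with it. With total counts alone the counts were 1 for wild-type 3 h RNA, 7 for mutant 6 h RNA, 7 for mutant 6 h against 3 h RNA, 0 for strains at 6 h in RNA, 1 for mutant 3 h footprints and 11 for mutant 6 h against 3 h footprints. RLE factors gave 1 for mutant 3 h footprints. DESeq2 gave 7 for wild-type 3 h, 7 for mutant 3 h, 6 for strains at 6 h and 2 for the 6 h interaction in RNA, and in footprints 8 for wild-type 3 h, 5 for mutant 3 h, 2 for strains at 3 h, 13 for strains at 6 h, 1 for the 3 h interaction and 2 for the 6 h interaction. The fit of only the groups compared gave 8 for mutant 6 h RNA, 0 for strains at 6 h in RNA, and in footprints 12 and 9 for 6 h against 3 h in wild type and mutant and 0 for strains at 3 h and at 6 h.

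With the replicate block, 2 members were called between strains at 6 h in RNA, 4 at 3 h in mutant footprints, and 10 between strains at 6 h in footprints, where the numbers did not pair the samples; no other count moved by over 1.5 times. No TE comparison had a call under any setting, the block by lysate included.

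Leaving out 1 library gave, in RNA, 0 to 5 calls (wild type 3 h), 6 to 11 (wild type 6 h), 10 to 17 (wild type 6 h against 3 h), 0 to 4 (mutant 3 h), 9 to 18 (mutant 6 h), 3 to 9 (mutant 6 h against 3 h), 0 to 1 (strains at 6 h) and 0 to 1 (6 h interaction). In footprints these were 1 to 4, 13 to 18, 12 to 24, 0 to 4, 10 to 21, 11 to 17, 0 to 14 and 0 to 3, with 0 to 1 for strains at 3 h. Of the named members' calls, 84 of 86 kept their side of the threshold with DESeq2, 85 with the block, 83 without the filter, 82 with RLE factors, 67 with only the groups compared, 65 with total counts alone, and 399 of 516 when a library was left out. Causes were not tested. Depth limits the RNA values: the smallest RNA library held 113262 counts, where 3 counts are 22.2 CPM.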
